A study of Mus musculus with 18 samples.

Results

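DKO and WT CD4+CD25- T cells from the anergic gate were compared across all named genes, in 6 of the 18 libraries of the series. The 6 were taken by their labels, as 3 libraries of DKO and 3 of WT anergic cells. Each of 3 bone marrow chimeras, numbered 10, 11 and 12, gave 1 library of each genotype, so that both genotypes of a pair had lived in the same host. The hosts were lethally irradiated CD45.1 BoyJ mice that had received a mixture of DKO and WT marrow with DKO marrow in the minority. The DKO donor was a germline Nr4a1-/- Nr4a3-/- mouse marked by CD45.2, and the WT donor carried CD45.1 and CD45.2. The strain in the labels is C57BL/6, and the age of each host is not given in the sources used here. Cells from spleen and lymph node were sorted as CD44hi CD73hi FR4hi, among other markers, straight into lysis buffer with no stimulation, and RNA equal to that of 2000 cells was amplified by SMART-seq. The remaining 12 libraries are naive (CD44lo CD73lo FR4lo) cells of both genotypes from the same chimeras, ex vivo and after 3 hours on anti-CD3 and anti-CD28. Because the deletion is germline, the DKO cells had also developed in the thymus without both receptors, and a DKO and a WT library of one chimera differ in donor and in CD45 allele as well as in genotype.

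Anergic T cells are self-reactive T cells that persist in the periphery in an unresponsive state, marked by the folate receptor FR4 and the ecto-nucleotidase CD73 at their surface. *Nr4a1* and *Nr4a3* encode orphan nuclear receptors that are induced by signals through the T cell receptor (TCR) and bind DNA at sites such as the NBRE, an 8-base element. They act in thymic selection and in regulatory T cells (Tregs), where they stand upstream of *Foxp3*, and they take part in the tolerance programs of chronically stimulated T cells.

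WT anergic libraries held 20851693 to 24195860 counts and DKO anergic libraries 32529589 to 38380064, so that every DKO library was deeper than every WT library. With the DKO libraries thinned to the depth of the WT library of the same chimera, 435 of the 452 calls described below were kept. *Izumo1r*, which encodes FR4, was read at 1951, 1968 and 2025 TPM (transcripts scaled to a common library total) in the WT and 1577, 1611 and 1804 TPM in the DKO libraries of chimeras 10, 11 and 12, the order used throughout. The groups did not overlap, as for 23.7% of all genes tested. Of 7 sort gate genes, *Cd44* was called higher in DKO cells (log2 fold change 0.91, adjusted p = 0.0362) and *Il2ra* lower (-2.42, adjusted p = 2.6e-05). The call of *Cd44* was lost without chimera 10 (adjusted p = 0.356), without chimera 11 (adjusted p = 0.794) and with RLE factors, another scaling. The disrupted genes were still read, *Nr4a1* at 162 to 195 TPM and *Nr4a3* at 6.33 to 15.7 TPM over the 6 libraries, and neither was called different (adjusted p = 0.953 and 0.2), so these counts do not check the genotype. The third family member, *Nr4a2*, stood at 8.42, 9.03 and 8.27 TPM in WT and 25.3, 20.8 and 8.20 TPM in DKO cells (log2 fold change 1.37, adjusted p = 0.0743). Of the listed genes of other cells, *Cd8a* was at 0.398 TPM or less and *Itgam* at 0.488 TPM or less in every library. The CD8 and NK cell genes summed to 263 to 310 TPM in WT and 250 to 373 TPM in DKO cells, the myeloid genes to 145 to 191 and 161 to 197 TPM, and the antigen presenting cell genes to 494 to 588 and 302 to 469 TPM. The B cell factor gene *Pax5* (0.647 to 0.799 TPM in WT and 1.43 to 2.41 TPM in DKO cells, log2 fold change 1.70, adjusted p = 0.0342) and the γδ T cell receptor gene *Trdc* (1.58 to 4.12 and 4.65 to 9.90 TPM, 1.65, adjusted p = 0.0233) were called higher, though neither was without chimera 10 (adjusted p = 0.564 and 0.502) or 11 (adjusted p = 0.845 and 0.911). Summed over 13 listed B cell genes the level was 79.2 to 110 TPM in WT and 98.8 to 111 TPM in DKO cells, while 394 immunoglobulin genes summed to 13882 to 22976 TPM in WT and 8297 to 12070 TPM in DKO cells. Of those, *Igha* was read at 124, 1.21 and 676 TPM in WT and at 1.25, 2.91 and 1.41 TPM in DKO cells, so that the groups overlapped, and its call (log2 fold change -6.07, adjusted p = 0.00294) was lost without chimera 10 (adjusted p = 0.309) and with limma. The part of cells other than CD4 T cells in the results below was not tested. Tregs are CD4 T cells too, and their share in each library was not measured. For genes compared between anergic cells below, a different share of Tregs and a change within cells cannot be told apart.

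Between genotypes, 1.34% of the 33795 genes tested were called in anergic cells, with 297 above WT (0.879%) and 155 below (0.459%) in the DKO libraries, at an adjusted p under 0.05 in edgeR's quasi-likelihood test with Benjamini-Hochberg adjustment. This is the test behind every adjusted p given here. Among the genes called, 265 of the 297 and 149 of the 155 differed by 1 or more on the log2 scale, and 31 and 38 by 3 or more. The direction was the same in all 3 chimeras for 297 of 297 and 154 of 155 genes. The TPM of the groups did not overlap for 292 and 154 of them, against 23.7% of all genes tested. Both counts are largely set by the choice, since these genes were called by their difference in the same libraries. Together the 297 genes rose from a summed mean of 13934 TPM to 34443 TPM, and the 155 fell from 8921 to 1907 TPM. Median log2 fold changes were 1.56 and -2.16, while the median was -0.03 over all genes tested and 0.16 over the 15587 genes with a mean of 5 TPM or more in either anergic group, of which 2.57% were called. With TMM factors taken only from genes with an average log2 CPM over 1 the median over all genes was -0.16, and none of the 452 genes called changed direction under any scaling. Leaving out a chimera changed the calls: 128 of the 452 were kept without chimera 10, 141 without chimera 11 and 451 without chimera 12. No call changed direction in these fits, so a call lost is one that no longer passed the threshold. All 452 were kept when only the WT naive and stimulated libraries of chimera 12 were left out. With only the 6 anergic libraries, 443 of the 448 that were tested were kept. The cause of these shifts was not tested.

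**Figure D1:**
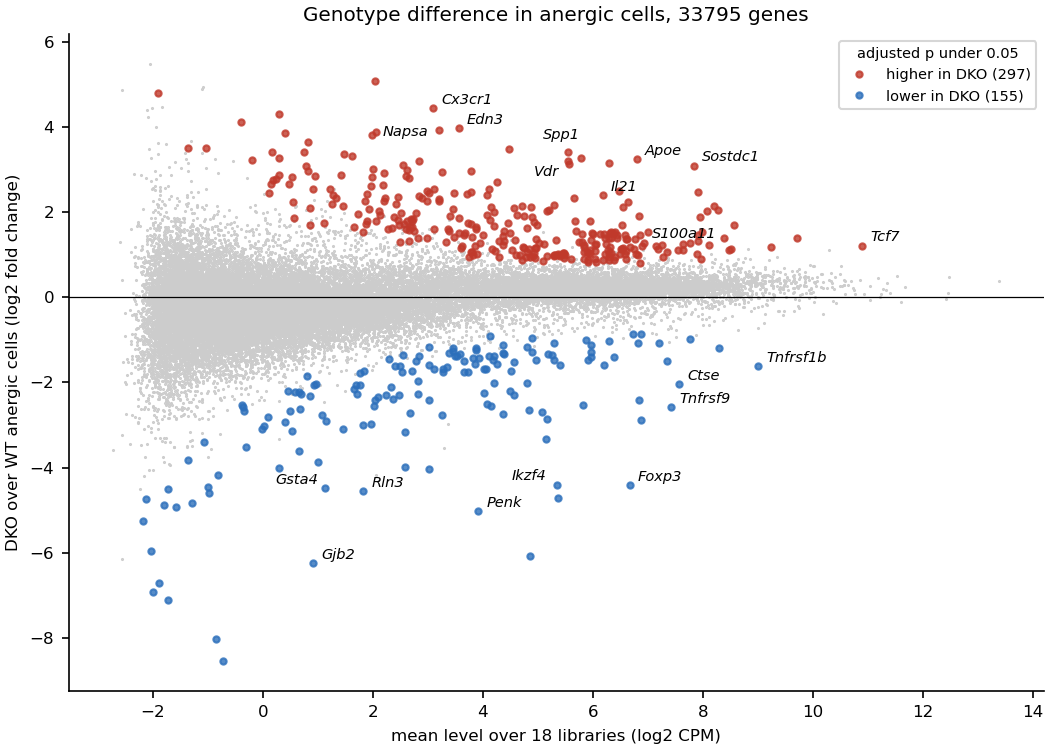
Log2 fold change of DKO over WT anergic cells (vertical axis) against the mean level over 18 libraries in log2 CPM (horizontal axis), 1 point a gene. Red points are the 297 genes called higher, blue points the 155 called lower and grey points the rest. Of the genes called, 31 lie at 3 or more and 38 at -3 or less, with *Foxp3* at -4.42 and *Penk* at -5.02.

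Several genes that rose encode secreted proteins. *Sostdc1*, which encodes a secreted antagonist of BMP and Wnt signals, was read at 395, 355 and 182 TPM in WT and 2141, 2357 and 2223 TPM in DKO cells. The lowest DKO library was thus above the highest WT library, and the log2 fold change was 3.10 (standard error 0.31, adjusted p = 1.2e-06). *Apoe*, which encodes the lipid carrier apolipoprotein E, stood at 95.3, 169 and 49.1 TPM in WT and 684, 1108 and 815 TPM in DKO cells (log2 fold change 3.26, standard error 0.39, adjusted p = 1.6e-05). *Spp1*, the gene of the cytokine and matrix protein osteopontin, was at 83.9, 71.4 and 20.9 TPM in WT and 668, 505 and 313 TPM in DKO cells (3.43, standard error 0.40, adjusted p = 1.1e-05). The WT library of chimera 12 was the lowest of the WT libraries for all 3 of these genes, and the groups did not overlap. *Igfbp7*, which encodes a secreted protein that binds insulin-like growth factors, rose from 4.58 ± 1.24 to 58.3 ± 14.5 TPM (SD, n = 3 chimeras each; log2 fold change 3.89, adjusted p = 7.0e-06). The angiopoietin-like factor gene *Angptl2* rose from 166 to 209 TPM over the WT libraries to 529 to 681 TPM over the DKO libraries (1.90, adjusted p = 1.6e-04), and *Thbs1*, the gene of thrombospondin 1, from 1.56 to 3.01 TPM to 12.7 to 18.7 TPM (3.00, adjusted p = 0.0016).

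Of 59 cytokine and chemokine genes tested, 4 rose (6.78%, against 2.57% of genes with a mean of 5 TPM or more). At an unadjusted p under 0.05, which 8.29% of all genes reached, 12 were higher and 3 lower. DESeq2 called 9 of the 59 higher, and 388 of all 33795 genes tested. Besides *Spp1*, the 4 were *Il21*, *Xcl1* and *Csf1*. *Il21*, which encodes the cytokine by which helper T cells drive B cell differentiation, was at 61.1, 61.6 and 27.6 TPM in WT and 243, 252 and 182 TPM in DKO cells (log2 fold change 2.40, standard error 0.35, adjusted p = 1.7e-04). *Xcl1*, the gene of a chemokine that draws cross-presenting dendritic cells, rose from 8.87, 5.23 and 2.96 TPM to 56.2, 51.5 and 38.7 TPM (3.41, standard error 0.59, adjusted p = 0.00143). *Csf1*, which encodes a growth factor of macrophages, was at 62.6 to 77.9 TPM in WT and 139 to 216 TPM in DKO cells (1.50, adjusted p = 0.00203). The list's median log2 fold change was -0.06, against -0.03 over all genes. Without chimera 10, *Xcl1*, *Csf1* and *Thbs1* were not called (adjusted p = 0.0577, 0.0649 and 0.121), nor were *Xcl1* and *Thbs1* without chimera 11 (adjusted p = 0.0508 and 0.0988). *Csf1* was also not called by limma on log2(TPM + 0.1). Of their exon bases, *Spp1* shares 18.8% and *Xcl1* 18.7% with another gene.

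The complement genes *C3* and *Cd55* moved in opposite directions. *C3*, whose product is cleaved in every pathway of complement, rose from 10.9, 15.7 and 6.83 TPM in WT to 43.3, 84.1 and 29.5 TPM in DKO cells (log2 fold change 2.42, standard error 0.32, adjusted p = 5.1e-05). *Cd55*, which encodes decay-accelerating factor, an inhibitor of the C3 convertases at the cell surface, fell from 17.3, 14.5 and 16.4 TPM to 2.57, 2.10 and 2.35 TPM (-2.54, standard error 0.22, adjusted p = 2.3e-07). *C3* and the other genes of peptides and receptors in the next paragraph, apart from *Edn3*, *Penk* and *Rln3*, were chosen after their values were seen, as were *Apoe*, *Angptl2* and *Thbs1* above.

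Several genes of signaling peptides and of their receptors were among those called. *Edn3*, which encodes endothelin 3, was at 4.80, 3.75 and 3.39 TPM in WT and 60.3, 40.5 and 53.9 TPM in DKO cells (log2 fold change 3.98, standard error 0.50, adjusted p = 2.6e-05). *Qrfp*, the gene of an RF-amide neuropeptide, rose from 0.905, 1.59 and 1.11 TPM to 12.3, 8.82 and 11.7 TPM (3.37, standard error 0.49, adjusted p = 1.6e-04), and *Gal*, the gene of galanin, from 10.4, 18.4 and 4.91 TPM to 39.3, 35.5 and 74.0 TPM (2.34, standard error 0.59, adjusted p = 0.0421). In the other direction, *Penk*, which encodes proenkephalin, the precursor of the enkephalins, was at 212, 189 and 191 TPM in WT and 12.3, 1.06 and 3.81 TPM in DKO cells. The highest DKO library was far below the lowest WT library (log2 fold change -5.02, standard error 0.49, adjusted p = 8.1e-07). *Rln3*, the gene of relaxin 3, fell from 93.6, 129 and 118 TPM to 4.0, 5.31 and 2.97 TPM (-4.56, standard error 0.46, adjusted p = 1.3e-06). Among receptors, *Ramp1*, whose product forms the receptor of calcitonin gene-related peptide, rose from 53.0 to 68.8 TPM over the WT libraries to 161 to 185 TPM over the DKO libraries (1.80, adjusted p = 1.0e-04). The receptor genes of vasoactive intestinal peptide, *Vipr2* (2.39, adjusted p = 0.00147), and of glucagon-like peptide 1, *Glp1r* (2.45, adjusted p = 4.9e-04), rose to 20 to 25.3 and 13.2 to 21.4 TPM. Without chimera 10, *Gal*, *Qrfp*, *Vipr2* and *Glp1r* were not called (adjusted p = 0.618, 0.0769, 0.132 and 0.0931), and without chimera 11 *Gal* was not (adjusted p = 0.0726). *Gal* was also lost by DESeq2, by limma on log2(TPM + 0.1), among genes with an average log2 CPM over 1 and with TMM factors from those genes, and *Vipr2* by limma on log2(TPM + 0.1).

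**Figure D2:**
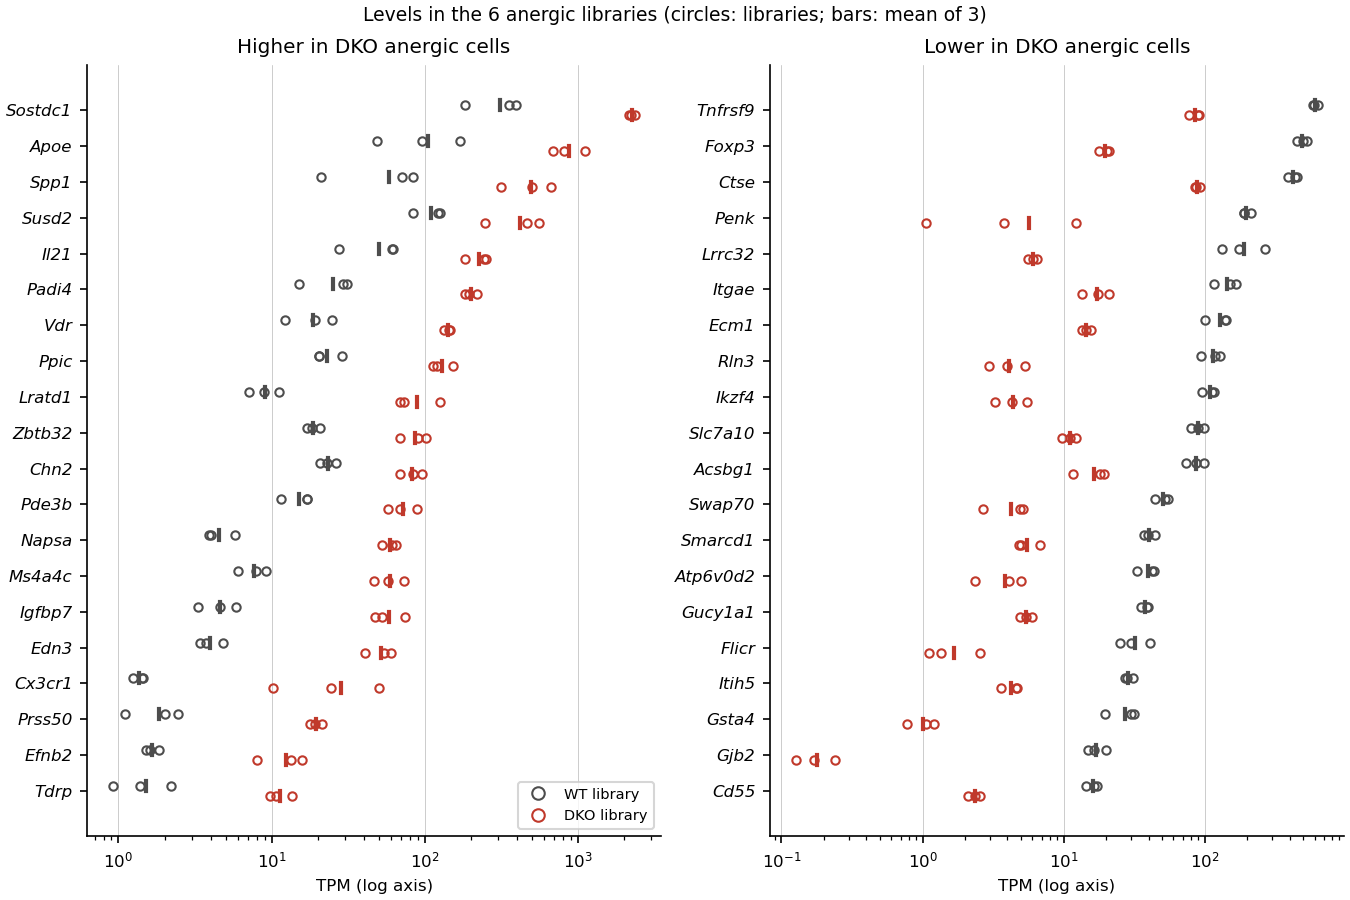
TPM of 20 genes higher (left) and 20 lower (right) in DKO anergic cells on a log axis. Each circle is 1 library, grey for WT and red for DKO, and each bar is the mean of 3 libraries. For all 40 genes every DKO library lies on the same side of every WT library. The genes were chosen by their difference in these libraries, so this is largely set by the choice.

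The higher genes with the smallest adjusted p were of varied function. *Napsa*, which encodes the aspartic protease napsin A, rose from 3.89, 5.80 and 4.01 TPM in WT to 52.6, 65.2 and 60.9 TPM in DKO cells (log2 fold change 3.94, standard error 0.34, adjusted p = 1.4e-07). *Padi4*, the gene of a peptidylarginine deiminase, which converts arginine in proteins to citrulline, rose from 29.4, 31.1 and 15 TPM to 183, 219 and 195 TPM (3.27, standard error 0.29, adjusted p = 2.6e-07). *Lratd1* was at 8.92, 11.1 and 7.11 TPM in WT and 125, 73.3 and 69.1 TPM in DKO cells (3.49, standard error 0.32, adjusted p = 2.8e-07). In naive cells their means were 0.656, 0.698 and 1.36 TPM in WT and 1.04, 1.22 and 1.23 TPM in DKO. *Susd2*, which encodes a membrane protein with a sushi domain, rose from 122, 126 and 83.8 TPM to 462, 556 and 246 TPM (2.12, standard error 0.23, adjusted p = 4.6e-06). *Pde3b*, the gene of a phosphodiesterase that breaks down cyclic AMP, rose from 15.2 ± 3.13 to 71.8 ± 15.6 TPM (SD, n = 3 each; 2.47, adjusted p = 3.3e-06), and *Chn2*, the gene of a GTPase-activating protein for Rac, from 23.5 ± 2.88 to 82.9 ± 13.6 TPM (2.06, adjusted p = 1.9e-06). *Ppic*, which encodes the prolyl isomerase cyclophilin C, rose from 23.2 ± 4.80 to 129 ± 21.6 TPM (2.71, adjusted p = 1.6e-05), and *Efnb2*, the gene of ephrin B2, a membrane ligand of Eph receptors, from 1.65 ± 0.164 to 12.4 ± 4.03 TPM (3.11, adjusted p = 7.8e-06). Lower in level, the serine protease family gene *Prss50* rose from 1.85 ± 0.682 to 19.4 ± 1.75 TPM (3.66, adjusted p = 2.1e-05), *Rassf10* from 0.524 ± 0.406 to 5.94 ± 1.54 TPM (3.87, adjusted p = 0.00718) and the zinc transporter gene *Slc30a3* from 0.625 ± 0.316 to 5.46 ± 1.95 TPM (3.43, adjusted p = 0.0166). *Rassf10* and *Slc30a3* were not called without chimera 10 (adjusted p = 0.122 and 0.281) or chimera 11 (adjusted p = 0.147 and 0.22).

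Of 48 listed factors of T helper lineages, 10 rose and 4 fell, with a median log2 fold change of 0.41. That is 29.2% of the list, against 2.57% of genes with a mean of 5 TPM or more, whose median was 0.16. *Foxp3*, *Ikzf4* and *Plagl1* are counted here and again in the Treg list below. Higher were *Ascl2*, *Vdr*, *Plagl1*, *Myb*, *Id2*, *Ikzf3*, *Pou2af1*, *Tcf7*, *Ikzf1* and *Rxra*, and lower were *Ikzf4*, *Foxp3*, *Prdm1* and *Ahr*. *Ascl2*, which encodes a basic helix-loop-helix factor that starts the T follicular helper program, was at 46.9, 61.2 and 33.2 TPM in WT and 142, 209 and 162 TPM in DKO cells (log2 fold change 2.12, standard error 0.27, adjusted p = 3.4e-05). *Tcf7*, the gene of TCF-1, a factor of naive, memory and follicular helper T cells, was the most abundant of the 10, at 1375, 1567 and 1319 TPM in WT and 2738, 2943 and 2765 TPM in DKO cells (1.22, standard error 0.27, adjusted p = 0.0184). *Pou2af1*, which encodes a lymphocyte coactivator of octamer factors, rose from 103, 88.3 and 60.2 TPM to 191, 235 and 199 TPM (1.51, adjusted p = 0.00307), and *Mef2b*, a transcription factor gene chosen after its values were seen, from 30.2, 24.4 and 15.2 TPM to 86.1, 114 and 100 TPM (2.31, adjusted p = 0.0013). *Prdm1*, which encodes BLIMP-1, a repressor of the follicular program and a factor of effector T cells and plasma cells, fell from 34.9, 36.2 and 36.2 TPM to 9.71, 9.99 and 11.0 TPM (-1.57, standard error 0.23, adjusted p = 1.7e-04).

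The receptor gene *Vdr*, which encodes the vitamin D receptor, was read at 19.3, 24.8 and 12.2 TPM in WT and 144, 146 and 133 TPM in DKO cells (log2 fold change 3.20, standard error 0.45, adjusted p = 1.2e-04). *Rxra*, which encodes RXRα, the partner with which the vitamin D receptor binds DNA, rose from 4.79, 5.44 and 6.09 TPM to 15.6, 9.13 and 10.0 TPM (1.31, standard error 0.32, adjusted p = 0.033). These were the 2 of 43 nuclear receptor genes tested that passed (4.65%, against 2.57% of genes with a mean of 5 TPM or more). The list's median was 0.00. *Klf2*, which encodes a factor of T cell quiescence and trafficking, rose from 37.7, 49.8 and 43.0 TPM to 130, 146 and 195 TPM (2.05, standard error 0.27, adjusted p = 5.2e-05). Its mean was 1184 TPM in WT and 1003 TPM in DKO naive cells, above either anergic group. *Zbtb32*, the gene of a zinc finger repressor, rose from 18.6 ± 1.93 to 86.9 ± 17.0 TPM (SD, n = 3 each; 2.47, adjusted p = 8.4e-06). *Id2*, which encodes an inhibitor of E proteins, was at 173 to 183 TPM in WT and 354 to 456 TPM in DKO cells (1.37, adjusted p = 0.00184), and *Myb*, the gene of a progenitor cell factor, at 4.02 to 5.51 and 11.2 to 13 TPM (1.50, adjusted p = 0.00145). Among the factors that fell, *Ahr*, which encodes the aryl hydrocarbon receptor, was at 15.7 to 25.5 TPM in WT and 5.28 to 8.36 TPM in DKO cells (-1.31, adjusted p = 0.0223), and *Gata1*, the gene of an erythroid and mast cell factor, at 8.91 to 10.0 and 1.41 to 1.95 TPM (-2.26, adjusted p = 1.6e-04).

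Not all of these calls held without chimera 10 or 11. *Tcf7* (adjusted p = 0.549 and 0.523), *Rxra* (1 and 0.245), *Id2* (0.0581 and 0.0657) and *Ahr* (0.157 and 0.618) were lost under both. *Myb* and *Gata1* were lost without chimera 10 (adjusted p = 0.0623 and 0.111) and *Pou2af1* without chimera 11 (adjusted p = 0.184). *Id2*, *Myb*, *Pou2af1*, *Ahr* and *Gata1* were chosen after their values were seen. *Tcf7* was also lost with RLE factors, *Rxra* with limma on log2 TPM at either pseudocount and *Ahr* with limma on log2(TPM + 0.1). Without chimera 10 and without chimera 11 the log2 fold change was 1.23 and 1.29 for *Tcf7* and 1.38 and 1.50 for *Id2*. It was 1.00 and 1.49 for *Rxra* and -1.63 and -1.11 for *Ahr*. *Vdr*, *Ascl2*, *Klf2*, *Zbtb32* and *Prdm1* were called under every alternative tried.

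The NBRE, the letters AAAGGTCA or their reverse complement TGACCTTT, was searched in RefSeq promoter windows of 300 bases (250 before and 50 after each start, GRCm38.p6). It was present in the promoters of 3 of the 222 matched genes called higher (1.35%), 3 of the 100 matched genes called lower (3%) and 278 of the 17567 matched genes tested (1.58%). The 3 higher genes were *Tcf7*, *Rxra* and *Shld1*, and the 3 lower genes *Rln3*, *Tbxa2r* and *Igsf23*, all 6 named for the match. The windows of *Tcf7* (chr11:52282546-52282845), *Rxra* (chr2:27709042-27709341) and *Rln3* (chr8:84044930-84045229) are shown because their values are given above, each on the strand of the gene from 5′ to 3′ with the match in capitals. The match starts 13 bases before the start of transcription in *Tcf7* (minus strand), 50 bases before it in *Rxra* (plus strand) and 117 bases before it in *Rln3* (minus strand). A match is a run of letters and not evidence of binding.
Tcf7: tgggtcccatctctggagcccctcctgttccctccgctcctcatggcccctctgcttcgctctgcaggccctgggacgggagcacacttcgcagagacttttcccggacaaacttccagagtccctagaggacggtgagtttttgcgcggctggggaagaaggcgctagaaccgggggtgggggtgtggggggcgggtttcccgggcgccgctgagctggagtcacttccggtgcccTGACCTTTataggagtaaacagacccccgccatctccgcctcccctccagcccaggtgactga
Rxra: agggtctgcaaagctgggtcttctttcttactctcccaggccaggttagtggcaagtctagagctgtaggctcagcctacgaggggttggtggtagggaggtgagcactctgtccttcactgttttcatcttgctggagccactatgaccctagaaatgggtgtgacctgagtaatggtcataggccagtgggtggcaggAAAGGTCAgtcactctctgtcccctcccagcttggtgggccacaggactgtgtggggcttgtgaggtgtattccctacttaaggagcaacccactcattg
Rln3: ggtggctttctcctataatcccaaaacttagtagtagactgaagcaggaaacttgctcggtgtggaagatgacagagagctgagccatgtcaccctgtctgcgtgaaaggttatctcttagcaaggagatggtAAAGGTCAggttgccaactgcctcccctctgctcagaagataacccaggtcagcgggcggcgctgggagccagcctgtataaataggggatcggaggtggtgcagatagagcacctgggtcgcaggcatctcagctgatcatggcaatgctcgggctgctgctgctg

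TNF superfamily ligands were a family with a median log2 fold change of 1.01 over 15 genes tested. Of these, 3 rose (20%, against 2.57% of genes with a mean of 5 TPM or more). At an unadjusted p under 0.05, which 8.29% of all genes reached, 8 were higher and 2 lower. Besides *Tnfsf8* and *Tnfsf14*, the 3 held *Cd40lg*, which encodes CD40 ligand, the signal by which helper T cells activate B cells and dendritic cells. *Cd40lg* was at 200, 182 and 114 TPM in WT and 574, 642 and 546 TPM in DKO cells (log2 fold change 2.03, standard error 0.33, adjusted p = 6.7e-04). Of 26 TNF receptor genes, 2 fell (7.69%), with a median log2 fold change of -0.06. At an unadjusted p under 0.05, 4 were higher and 4 lower. *Tnfrsf9*, which encodes the costimulatory receptor 4-1BB, fell from 631, 599 and 587 TPM to 90.3, 89.6 and 77.5 TPM (-2.58, standard error 0.27, adjusted p = 2.8e-06), and *Tnfrsf1b*, which encodes TNF receptor 2, from 1009, 1186 and 1091 TPM to 295, 323 and 288 TPM (-1.61, standard error 0.28, adjusted p = 0.00129). *Tnfsf14* was not called without chimera 10 (adjusted p = 0.234) or chimera 11 (adjusted p = 0.0913).

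Among 27 genes of the B7 and CD28 family and of other costimulatory and inhibitory receptors, 5 rose and 2 fell. These made up 25.9% of the list, against 2.57% of genes with a mean of 5 TPM or more. The 5 were *Cd226*, *Slamf6*, *Cd200* and the inhibitory receptor genes *Btla* and *Lag3*, and the 2 were *Cd200r1* and *Cd96*. Genes of inhibitory receptors thus moved in both directions. *Cd226*, which encodes the activating receptor DNAM-1, rose from 13.2, 12.4 and 14.6 TPM to 45.8, 29.4 and 30.3 TPM (log2 fold change 1.63, standard error 0.24, adjusted p = 1.6e-04). *Cd96*, the gene of a receptor that shares a ligand with DNAM-1, fell from 259, 258 and 251 TPM to 118, 91.6 and 99.0 TPM (-1.08, standard error 0.22, adjusted p = 0.00822). *Cd200r1*, the gene of the inhibitory receptor for CD200, fell from 49.6, 49.0 and 42.7 TPM to 16.5, 18.1 and 13.4 TPM (-1.32, standard error 0.23, adjusted p = 0.00138). *Slamf6*, which encodes a self-binding receptor of T and B cells, was at 129 to 138 TPM in WT and 271 to 311 TPM in DKO cells (1.39, adjusted p = 6.7e-04). *Cd40lg*, *Cd226* and *Tnfrsf9* were called without each chimera. Without chimera 10, *Cd96*, *Cd200r1* and *Slamf6* were not called (adjusted p = 0.151, 0.13 and 0.0864). They were also lost without chimera 11 (adjusted p = 0.566, 0.0864 and 0.0811), and *Tnfrsf1b* was lost there too (adjusted p = 0.169). RLE factors and DESeq2 each ended the call of *Cd96*, which was chosen after its values were seen.

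Genes of receptors that steer T cells through tissue moved in both directions. Of 22 chemokine receptor genes, *Cx3cr1* and *Cxcr6* rose and *Ccr6* and *Ccr8* fell (18.2%, against 2.57% of genes with a mean of 5 TPM or more). *Cx3cr1*, the receptor gene of fractalkine, was at 1.44, 1.43 and 1.24 TPM in WT and 24.5, 50.1 and 10.2 TPM in DKO cells (log2 fold change 4.45, standard error 0.48, adjusted p = 3.3e-06). *Cxcr6*, the receptor gene of CXCL16, rose from 14, 10.9 and 8.57 TPM to 54.9, 53.2 and 53.3 TPM (2.51, standard error 0.34, adjusted p = 7.2e-05). *Ccr8*, found on tissue Tregs among other cells, fell from 256, 327 and 333 TPM to 88.1, 120 and 49.5 TPM (-1.60, standard error 0.33, adjusted p = 0.00794), and *Ccr6*, the receptor gene of CCL20, from 25, 28.8 and 20.2 TPM to 6.38, 3.83 and 2.93 TPM (-2.27, standard error 0.46, adjusted p = 0.00765). Of 38 lipid receptor genes, 2 rose and 1 fell (7.89%). The sphingosine 1-phosphate receptor genes *S1pr3* (from 1.19, 1.37 and 0.901 TPM to 17.6, 22.2 and 5.07 TPM, log2 fold change 3.81, adjusted p = 0.00282) and *S1pr2* (from 29.1 to 42.9 TPM to 66.9 to 105 TPM, 1.34, adjusted p = 0.00854) rose. The prostacyclin receptor gene *Ptgir* fell from 8.55, 9.07 and 9.10 TPM to 2.04, 2.05 and 3.00 TPM (-1.69, adjusted p = 0.00282), and *Cnr2*, which encodes cannabinoid receptor 2 and was chosen after its values were seen, from 23.4, 17.3 and 27.9 TPM to 5.58, 5.26 and 6.98 TPM (-1.68, adjusted p = 1.3e-04).

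Of 62 genes of G proteins and their regulators, 5 rose (8.06%, against 2.57% of genes with a mean of 5 TPM or more). The median log2 fold change of the 62 was 0.23. At an unadjusted p under 0.05, which 8.29% of all genes reached, 13 were higher. *Gna12* and *Gna13* encode alpha subunits that couple to S1PR2. *Gna13* was at 161, 216 and 137 TPM in WT and 334, 431 and 257 TPM in DKO cells (log2 fold change 1.23, standard error 0.28, adjusted p = 0.022), and *Gna12* at 54.5, 89.3 and 80.9 TPM in WT and 187, 129 and 140 TPM in DKO cells (1.26, standard error 0.25, adjusted p = 0.00585). The receptor kinase gene *Grk3* (2.36, adjusted p = 0.00226), the gamma subunit gene *Gng2* (1.16, adjusted p = 0.00257) and the alpha subunit gene *Gnaz* (2.25, adjusted p = 0.0452) were the others, *Gnaz* being chosen after its values were seen. Of their exon bases, *Gna12* shares 13.3% and *Gng2* 20.4% with a gene on the other strand. Without chimera 10 all 5 were lost (adjusted p = 0.0934 to 0.883), and without chimera 11 all but *Gna12* (adjusted p = 0.184 to 0.658). *Gna13* was also lost with RLE factors, *Grk3* with limma on log2(TPM + 0.1), and *Gnaz* with that fit and with TMM factors from genes with an average log2 CPM over 1. Of the receptors in the paragraph before, *S1pr3*, *S1pr2*, *Ccr6* and *Ptgir* were lost without chimera 10 (adjusted p = 0.106, 0.072, 0.238 and 0.211), and *S1pr2*, *Ccr6*, *Ptgir* and *Ccr8* without chimera 11 (adjusted p = 0.25, 0.221, 0.235 and 0.059).

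In the proximal TCR pathway, 5 of 38 genes were higher at an unadjusted p under 0.05, which 8.29% of all genes reached. Called higher was 1 of the 38 (2.63%, near the 2.57% called over all genes with a mean of 5 TPM or more). It was *Themis*, which encodes an adaptor that tunes TCR signals in thymocytes and T cells, at 15.1, 13.4 and 9.85 TPM in WT and 38.5, 37.9 and 29.7 TPM in DKO cells (log2 fold change 1.70, standard error 0.24, adjusted p = 1.0e-04). *Ptpn11*, the gene of the phosphatase SHP2, rose from 64.2, 80.3 and 67.0 TPM to 155, 183 and 181 TPM (1.53, standard error 0.22, adjusted p = 1.5e-04). *Ppp3ca*, which encodes the catalytic subunit of calcineurin, the phosphatase that activates NFAT, fell from 8.83, 8.85 and 10.4 TPM to 3.21, 2.89 and 3.12 TPM (-1.36, standard error 0.20, adjusted p = 2.5e-04). *Vav2*, the gene of an exchange factor for small GTPases, fell from 25, 35.7 and 34.2 TPM to 11.1, 9.42 and 12.1 TPM (-1.30, adjusted p = 0.0035). Of 45 interleukin receptor genes, 5 rose and 1 fell (13.3%, against the same 2.57%). The 5 were *Il9r* (2.28, adjusted p = 0.00428), *Il13ra1* (1.46, adjusted p = 0.0101), *Il1rl2* (1.00, adjusted p = 0.0056), *Il12rb2* (1.60, adjusted p = 0.0461) and *Il7r* (0.90, adjusted p = 0.0443), and the 1 was *Il2ra*. *Stat4*, which carries the IL-12 signal, rose from 90.2 to 108 TPM to 147 to 185 TPM (1.01, adjusted p = 0.0265), and the survival gene *Bcl2* from 25.5 to 34.6 TPM to 49.8 to 69.5 TPM (1.26, adjusted p = 0.0059). *Themis* and *Ptpn11* were called without each chimera. The 5 interleukin receptor genes, *Stat4*, *Bcl2* and *Vav2* were lost without chimera 10 (adjusted p = 0.062 to 0.777), and all of them except *Il9r*, along with *Ppp3ca*, without chimera 11 (adjusted p = 0.072 to 0.989). *Il7r* and *Stat4* were also lost with RLE factors and DESeq2, *Il9r* with DESeq2, *Il1rl2* with RLE factors, *Il13ra1* with limma on log2(TPM + 0.1), and *Il12rb2* with limma at either pseudocount and with TMM factors from genes with an average log2 CPM over 1. *Il12rb2* and *Il7r* were chosen after their values were seen. *Il12rb2* shares 40% of its exon bases with *Serbp1* on the other strand and *Stat4* 26.7% with another gene, and the kit does not mark strand. *Serbp1* had means of 35.5 TPM in WT and 40.2 TPM in DKO anergic cells, and the partner of *Stat4* only 0.671 and 0.984 TPM.

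Of 22 listed Treg genes, 9 fell and 1 rose (45.5%, against 2.57% of genes with a mean of 5 TPM or more). At an unadjusted p under 0.05, which 8.29% of all genes reached, 14 were lower and 1 higher. The median log2 fold change of the 22 was -0.99, and their summed level was 5550 to 5886 TPM in WT and 2332 to 2437 TPM in DKO cells. *Foxp3*, the lineage factor of Tregs, was at 447, 496 and 533 TPM in WT and 20.9, 17.9 and 20.3 TPM in DKO cells (log2 fold change -4.42, standard error 0.32, adjusted p = 6.8e-09). *Lrrc32*, which encodes GARP, the receptor that holds latent TGF-β on Tregs, fell from 132, 175 and 266 TPM to 5.60, 6.45 and 6.07 TPM (-4.71, standard error 0.34, adjusted p = 6.8e-09). *Itgae*, which encodes the αE integrin CD103, fell from 116, 152 and 166 TPM to 17.5, 20.8 and 13.5 TPM (-2.87, adjusted p = 1.0e-06), and *Swap70*, the gene of a protein that binds phosphoinositides and Rac, from 44.2, 51.9 and 55.2 TPM to 4.87, 5.16 and 2.68 TPM (-3.32, adjusted p = 8.1e-07). *Il2ra*, the gene of CD25, by which both genotypes were sorted as negative, was at 27.8, 33.4 and 41.4 TPM in WT and 5.95, 4.63 and 5.40 TPM in DKO cells (-2.42, adjusted p = 2.6e-05).

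Several other members of the list were not called. The likelihood ratio test called 11 of the list lower and limma on log2(TPM + 1) called 13, each with 1 higher. Over all 33795 genes tested, they called 232 and 550 lower. *Ctla4*, an inhibitory receptor gene that Tregs and anergic cells share, was at 410, 422 and 414 TPM in WT and 292, 324 and 338 TPM in DKO cells (log2 fold change -0.16, adjusted p = 0.882). *Ikzf2*, which encodes Helios, was at 98.7, 129 and 120 TPM in WT and 60.5, 57.6 and 55.1 TPM in DKO cells (-0.75, adjusted p = 0.298). For both genes the TPM of the genotypes did not overlap, as for 23.7% of all genes tested. TPM does not take in the TMM factors, which were 1.08 to 1.32 in WT and 0.96 to 1.08 in DKO anergic libraries. The genes of GITR and OX40, *Tnfrsf18* (-1.04, adjusted p = 0.0581) and *Tnfrsf4* (-0.94, adjusted p = 0.0961), did not pass either, and *Nrp1*, the gene of neuropilin 1, had a log2 fold change of 0.40 (adjusted p = 0.674). *Plagl1*, a zinc finger gene, was the member that rose, from 4.27, 6.44 and 3.36 TPM to 24.0, 30.4 and 10.7 TPM (2.44, standard error 0.37, adjusted p = 3.4e-04). *Flicr*, a long noncoding RNA gene next to *Foxp3*, fell from 25.1, 30.2 and 40.8 TPM to 2.55, 1.11 and 1.35 TPM (-3.98, adjusted p = 7.8e-06), but 23.8% of its exon bases lie in exons of *Foxp3*, so the reads of these genes cannot be fully told apart. In these whole sorted populations, fewer Tregs and less Treg RNA per cell cannot be told apart. The same limit holds for genes outside the list, whether higher or lower in the DKO anergic libraries. *Gpr83* and *Klrg1*, the remaining members that fell besides *Tnfrsf9* and *Ikzf4*, were lost without chimera 10 (adjusted p = 0.128 and 0.573) and without chimera 11 (adjusted p = 0.0531 and 0.383).

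**Figure D3:**
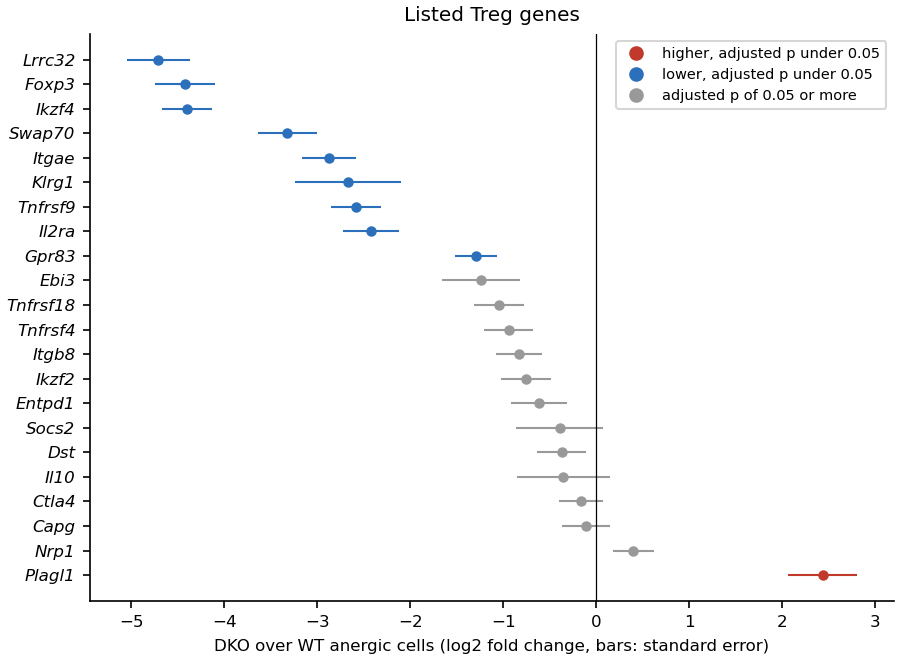
Log2 fold change of DKO over WT anergic cells for the 22 listed Treg genes tested, with bars of 1 standard error. Blue marks the 9 genes called lower, red the 1 called higher and grey the rest, and the values run from -4.71 for *Lrrc32* to 2.44 for *Plagl1*.

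*Ecm1*, which encodes extracellular matrix protein 1, was at 101, 142 and 139 TPM in WT and 14.3, 13.5 and 15.7 TPM in DKO cells (log2 fold change -2.89, standard error 0.24, adjusted p = 1.4e-07). *Gjb2*, the gene of the gap junction protein connexin 26, was at 16.3, 20 and 14.9 TPM in WT and 0.169, 0.127 and 0.239 TPM in DKO cells (-6.25, standard error 0.75, adjusted p = 1.6e-05). *Gsta4*, a glutathione S-transferase gene, fell from 29.8, 19.7 and 31.7 TPM to 1.20, 1.05 and 0.777 TPM (-4.48, standard error 0.45, adjusted p = 1.0e-06). The amino acid transporter gene *Slc7a10* fell from 89.1 ± 9.69 to 11.0 ± 1.22 TPM (SD, n = 3 each; -2.77, adjusted p = 1.6e-05) and the glucose transporter gene *Slc2a3* from 48.7 ± 2.92 to 14.9 ± 2.76 TPM (-1.46, adjusted p = 5.5e-04). *Gucy1a1*, which encodes a subunit of the nitric oxide receptor guanylate cyclase, fell from 37.8 ± 2.42 to 5.42 ± 0.536 TPM (-2.56, adjusted p = 7.0e-06), and *Atp6v0d2*, a subunit gene of the vacuolar proton pump, from 39.7 ± 5.74 to 3.82 ± 1.35 TPM (-3.16, adjusted p = 1.5e-05). *Acsbg1*, the gene of an enzyme that activates long-chain fatty acids, fell from 73.2, 87.3 and 98.2 TPM to 18.1, 11.6 and 19.2 TPM (-2.20, adjusted p = 8.3e-06), while *Acsl3*, which encodes another such enzyme, rose from 9.95, 7.24 and 6.18 TPM to 23.9, 21.4 and 19.2 TPM (1.71, adjusted p = 3.2e-04). The laminin gene *Lamc1* fell from 39, 51.4 and 51.7 TPM to 7.87, 10.9 and 6.50 TPM (-2.29, adjusted p = 5.4e-05). It was chosen after its values were seen. All 10 genes of this paragraph were called without each chimera in turn. *Slc7a10* shares 17.9% of its exon bases with *Lrp3* on the other strand, itself called lower.

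Among 103 genes of the actin and myosin cytoskeleton and of its partners, 9 rose and 1 fell. These were 9.71% of the list, against 2.57% of genes with a mean of 5 TPM or more. The calcium-binding protein gene *S100a11*, the most abundant of the 9, was at 1320, 1422 and 1144 TPM in WT and 2339, 2820 and 3048 TPM in DKO cells (log2 fold change 1.29, standard error 0.23, adjusted p = 0.00227, and 0.0559 without chimera 10 and 0.127 without chimera 11). The 2 coronin genes called went apart. *Coro2b* rose from 12.5 ± 3.40 to 41.3 ± 9.66 TPM (SD, n = 3 each; 1.95, adjusted p = 4.9e-04, and 0.0539 without chimera 10), and *Coro2a* fell from 48.6 ± 6.10 to 10.3 ± 1.24 TPM (-2.02, adjusted p = 8.5e-05). The G1 cyclin genes *Ccnd2* (from 84.5 to 94.9 TPM to 163 to 199 TPM, 1.18, adjusted p = 0.0298) and *Ccne1* (1.40, adjusted p = 0.019) rose out of 23 cyclin and inhibitor genes (8.7%), though neither without chimera 10 (adjusted p = 0.42 and 0.848) or chimera 11 (adjusted p = 0.498 and 0.249), and *Ccnd2* not with RLE factors. No call was made by edgeR or DESeq2 among 36 DNA replication genes (3 higher at an unadjusted p under 0.05 and 1 called by limma) and 30 mitosis genes (1 lower unadjusted and 1 by limma). The same tools called 0 of 86 cytosolic ribosomal protein genes, with a median of 0.46 (22 higher unadjusted, 1 by limma), and 0 of 89 nuclear genes of the respiratory chain, with a median of 0.31 (5 higher unadjusted, 1 by limma). Over all 33795 genes, 1666 were higher and 1134 lower unadjusted, and the median over genes with a mean of 5 TPM or more was 0.16. The ribosomal protein genes thus leaned higher as a set, though none passed by these tools. Of 49 interferon-stimulated genes 4 rose and 1 fell (10.2%), with a median of 0.06. The one with the smallest adjusted p, *Ly6a*, which encodes the surface antigen SCA-1, was at 441, 551 and 670 TPM in WT and 1177, 1330 and 1584 TPM in DKO cells (1.55, adjusted p = 2.5e-04).

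**Figure D4:**
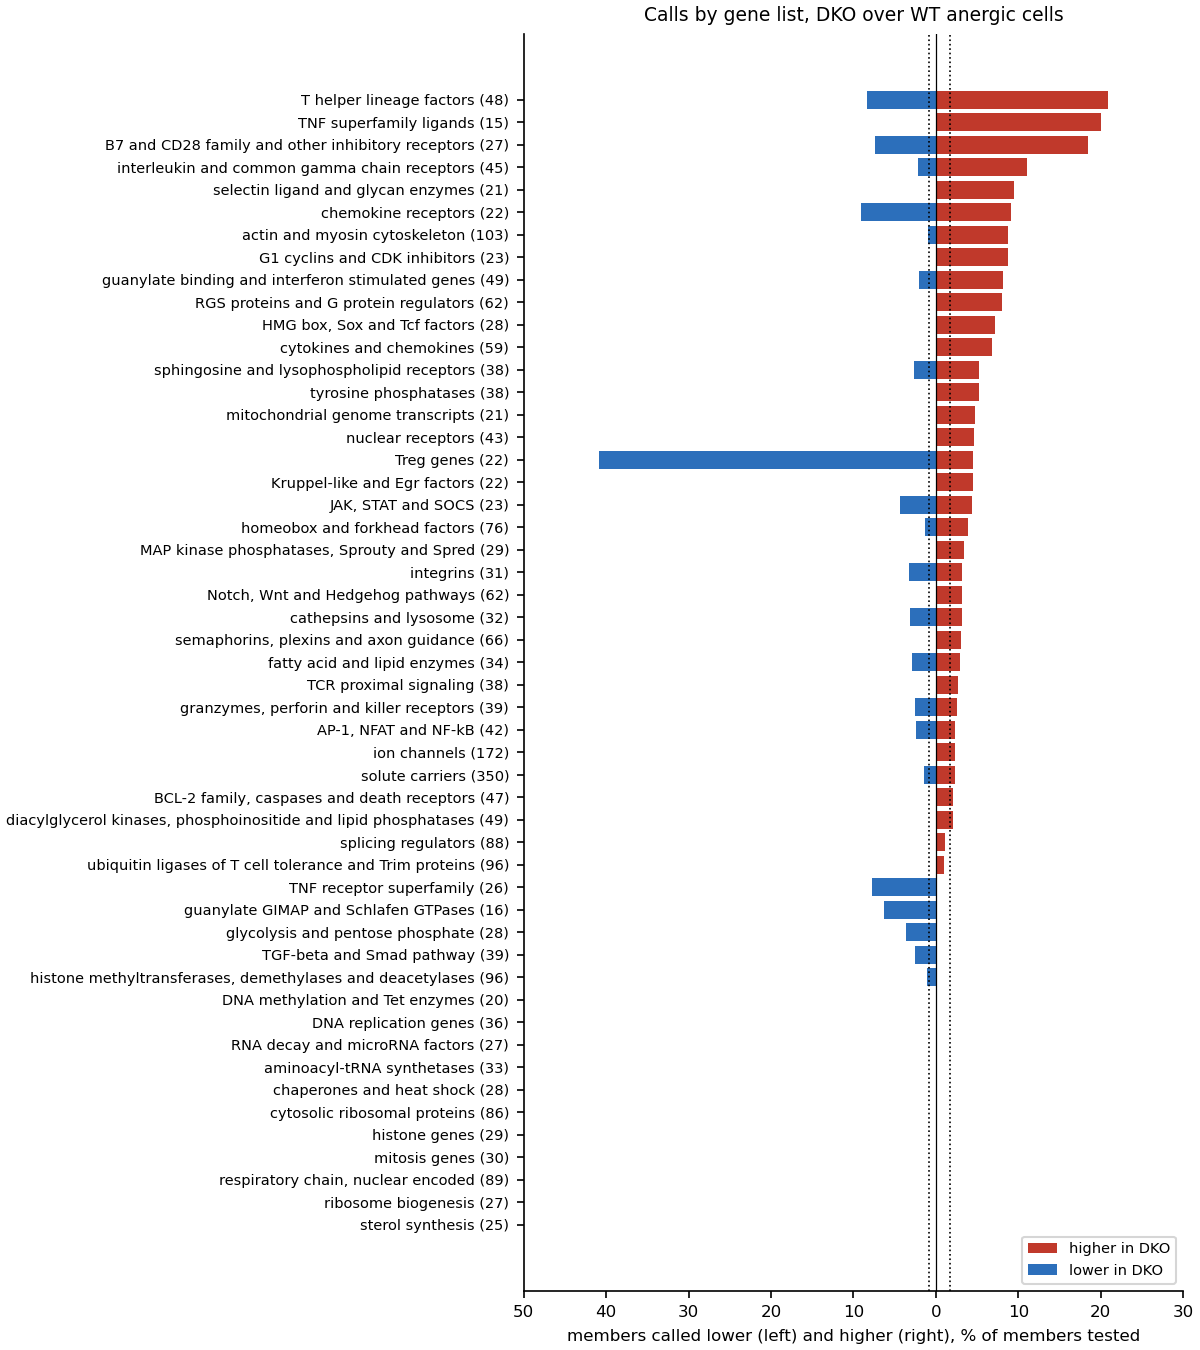
Share of the members tested of each gene list shown that were called lower (blue, to the left) and higher (red, to the right) in DKO anergic cells, in percent, with the number tested in brackets. Dotted lines mark the shares over the 15587 genes with a mean of 5 TPM or more, 0.821% lower and 1.75% higher. The Treg list reaches furthest to the left, with 9 of 22 members, and the T helper factors furthest to the right, with 10 of 48.

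Whether these differences were particular to the anergic gate was tested against the naive cells of the same chimeras. The genotype effect was called different between the gates for 130 of 33795 genes (0.385%), being higher in anergic cells for 77 (0.228%) and lower for 53 (0.157%). *Tdrp* showed how far the gates can part. In naive cells its means were 123 TPM in WT and 119 TPM in DKO, while in anergic cells it was at 2.20, 0.925 and 1.38 TPM in WT and 9.74, 13.5 and 10.7 TPM in DKO. Its anergic difference on the log2 scale, 3.17 (standard error 0.29, adjusted p = 3.5e-07), exceeded that in naive cells by 3.35 (standard error 0.38, adjusted p = 1.1e-04). *Ms4a4c*, a gene of the MS4A family of membrane proteins, had means of 81.5 TPM in WT and 164 TPM in DKO naive cells, and in anergic cells rose from 9.23, 7.90 and 6.01 TPM to 73.7, 46.6 and 57.5 TPM (3.14, standard error 0.29, adjusted p = 3.5e-07, difference between gates 2.27, adjusted p = 0.00364). *Sox4*, the gene of an HMG box factor, had a log2 fold change of 1.45 in anergic and -1.44 in naive cells (adjusted p = 0.0126 and 0.051, so that the naive value was not called), at 1.58 ± 0.540 and 3.53 ± 0.964 TPM in WT and DKO anergic cells against means of 14.3 and 5.88 TPM in naive cells (difference 2.89, adjusted p = 0.00101). The difference between gates was kept without each chimera for *Tdrp* and *Sox4* and lost without chimera 10 and without chimera 11 for *Ms4a4c*. *Sox4* itself was not called in anergic cells without chimera 10 (adjusted p = 0.0977) or 11 (adjusted p = 0.592) or by limma on log2(TPM + 1), and 54.6% of its exon bases are shared with another gene on the opposite strand.

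**Figure D5:**
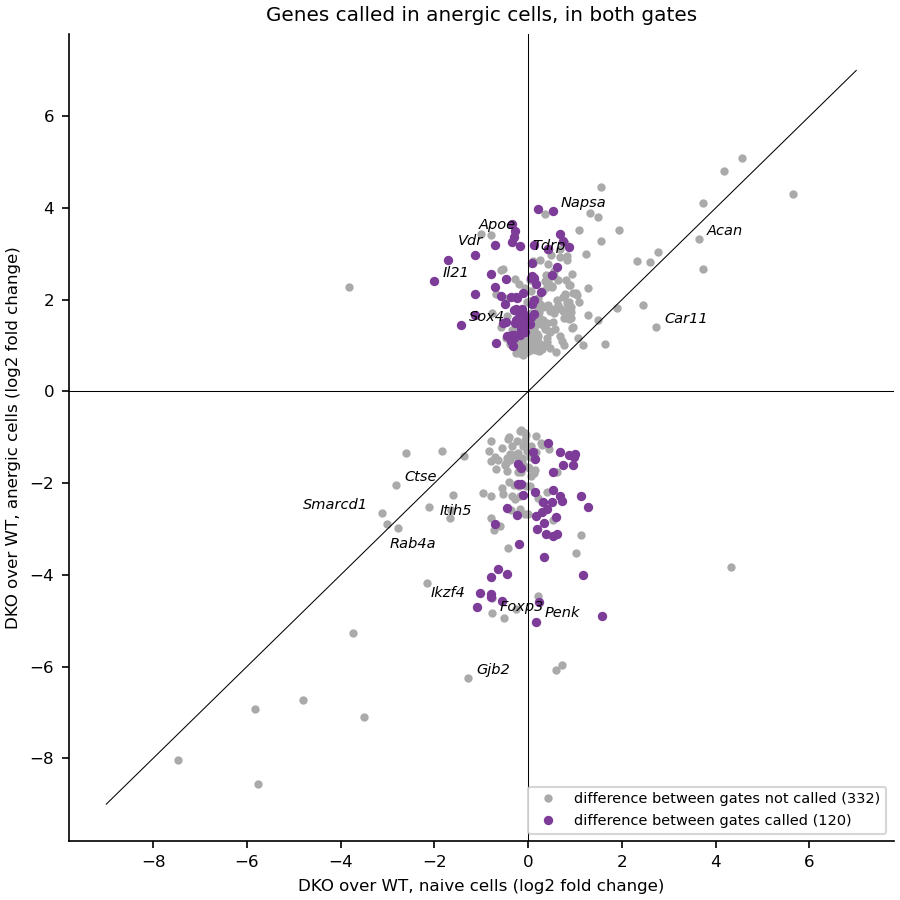
Log2 fold change of DKO over WT in anergic cells (vertical axis) and in naive cells (horizontal axis) for the 452 genes called in anergic cells, with the line of equal change. Purple marks the 120 genes whose effect differed between the gates. The 452 were chosen by their anergic values, so their distance from the horizontal axis is set by the choice. In naive cells the median is 0.08 for the 297 genes called higher and -0.18 for the 155 called lower, while *Smarcd1* (-2.65 and -3.12) and *Acan* (3.32 and 3.64) lie near the line.

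Some genes were also called in naive cells, whose libraries are separate from the anergic ones but come from the same chimeras. Of the 452 genes called in anergic and the 32 called in naive cells (0.0947% of those tested, 13 or 0.0385% higher and 19 or 0.0562% lower), 20 were called in both (4.42% and 62.5% of each list), all in the same direction. *Smarcd1*, which encodes a subunit of the SWI/SNF chromatin remodeler, was at 44.5, 39.7 and 37.1 TPM in WT and 6.75, 4.84 and 4.99 TPM in DKO anergic cells (log2 fold change -2.65, standard error 0.29, adjusted p = 3.4e-06), and its means in naive cells were 40.9 and 5.15 TPM. *Ctse*, the gene of the aspartic protease cathepsin E, fell from 433, 451 and 390 TPM to 85.0, 87.2 and 92.5 TPM (-2.04, adjusted p = 1.7e-05), with naive means of 367 and 56.6 TPM. *Itih5*, the gene of a hyaluronan-binding serum protein, fell from 27, 28 and 31.2 TPM to 3.57, 4.64 and 4.58 TPM (-2.51, adjusted p = 3.9e-06), with naive means of 7.61 and 1.93 TPM. *Hdgfl3* (-2.25 in anergic and -1.61 in naive cells), *Rab4a*, the gene of an endosomal GTPase (-2.97 and -2.77), *Ift80*, the gene of a ciliary transport protein (-1.40 and -1.37), and *Irak4*, the gene of a kinase of Toll-like receptor signals (-1.29 and -1.83), were also called lower in both gates. On the higher side were *Acan*, the gene of the cartilage proteoglycan aggrecan (3.32 and 3.64), *Car11* (1.41 and 2.72), and the genes *Anxa2* (1.02 and 1.18) and *Ahnak* (1.03 and 1.64), whose products bind each other. *Hdgfl3* shares 12.7% of its exon bases with *Tm6sf1*, a gene called higher on the other strand. The genes from *Hdgfl3* on were chosen after their values were seen. Without chimera 10, *Rab4a*, *Irak4*, *Car11*, *Anxa2* and *Ahnak* were not called in anergic cells (adjusted p = 0.0743 to 0.987), and without chimera 11 neither these 5 nor *Ift80* were (adjusted p = 0.068 to 0.269). RLE factors ended the calls of *Anxa2* and *Ahnak*, and limma at either pseudocount that of *Ahnak*.

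*Smarcd1* and *Irak4* lie on chromosome 15 within 10 Mb of *Nr4a1*, and *Ctse* and *Cd55* on chromosome 1 within 10 Mb of *Ptprc*, the gene of the CD45 marker by which the donors differ. Around *Nr4a1*, 4 of 252 genes tested rose and 3 fell, and *Vdr* was among the 4. That is 2.78%, against 1.34% of all genes and 2.57% of those with a mean of 5 TPM or more. Around *Nr4a3* on chromosome 4, 1 of 237 rose and 3 fell (1.69%). The 1 was *Pax5*, given above among the genes of other cells, and *Coro2a* was among the 3. Around *Ptprc*, 4 of 264 fell (1.52%). For genes in these windows, the deletion, the donor strain carried along with it and the CD45 allele cannot be told apart.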

How the data were processed

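RNA-seq of 18 libraries, 3 in each of 6 groups, was analysed. Before deposit, the authors used fastp for trimming, STAR for alignment (mm10) and featureCounts for counting by gene. No source used here gives their versions or the annotation. The deposited counts are raw, and the TPM values are the authors' own scaling of them. Columns of the authors' own comparisons (fold changes and p-values) were not used. Entries with a blank name held 0.0654 to 0.136% of counts and were left out.

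Counts were filtered by filterByExpr, scaled by TMM and fitted over all 18 libraries with edgeR 4.0.16 in R 4.3.3 (glmQLFit, glmQLFTest) with group and chimera as terms, and 33795 genes were tested with Benjamini-Hochberg adjustment and an adjusted p under 0.05 as the threshold. The second contrast set the genotype effect in anergic cells against that in naive cells. Both genotypes of a chimera come from the same host, which pairs them. The deviations of same-numbered anergic libraries from their group means had correlations of -0.0784, 0.23 and 0.181. Between WT and DKO anergic libraries of different numbers they ran from -0.281 to 0.127, a range that holds the value of chimera 10. Limma 3.58.1 and DESeq2 1.42.0 were among the alternatives. The script was tested on simulated data. The libraries of a group are separate chimeras.

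The genes named were the 15 called genes in each direction with the smallest adjusted p and the 10 with the largest log2 fold change (mean TPM of 5 or more in either anergic group, same direction in 3 of 3 chimeras, no clone names), up to 4 members of each of 66 gene lists by adjusted p, members of the gate, Nr4a, Treg and marker lists, and those of these genes called in the difference between gates. Genes outside this rule are marked in the text as chosen after their values were seen, or are named as members of a list that is counted, for a promoter match or for their position. The members and lists were chosen with earlier results of these data known. Promoter sequences and their positions are from RefSeq (GRCm38.p6), and exon overlaps from GENCODE. Some items withheld from this text are not reported here.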

Additional observations from a re-analysis of the deposited data

Results flagged for a closer look

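For 54 of 138 called genes examined one by one (39.1%), 32 higher and 22 lower, the genotype difference in anergic cells was called different from that in naive cells of the same chimeras, by the test of the difference itself over all genes (adjusted p under 0.05, 0.385% of all genes called). Values in brackets are the log2 fold change of DKO over WT in anergic cells minus that in naive cells. All 138 were called in anergic cells, whose values enter this difference, so the share is a description. Among secreted proteins and peptides, the difference was positive for *Apoe* (3.60), *Edn3* (3.76), *Il21* (4.41), *Qrfp* (3.67), *Sostdc1* (2.66) and *Spp1* (2.74). Among surface receptors, ligands and other membrane proteins, the difference was positive for *Cd226* (1.56), *Cd40lg* (2.26), *Efnb2* (2.69), *Ly6a* (1.61), *Ms4a4c* (2.27), *Ramp1* (2.05), *Slamf6* (1.51), *Slc1a4* (2.19) and *Tnfsf8* (2.27). Among transcription factors, the difference was positive for *Klf2* (2.41), *Myb* (2.05), *Sox4* (2.89), *Vdr* (3.91) and *Zbtb32* (2.40). It was also positive for *Acsl3* (1.89), *Chn2* (2.30), *Lratd1* (3.77), *Napsa* (3.42), *Padi4* (2.52), *Pde3b* (2.35), *Ppic* (2.10), *Prss50* (4.0), *Ptpn11* (1.52), *Rgcc* (2.42), *Tdrp* (3.35) and *Themis* (1.83). Among Treg genes and the RNA gene *Flicr* beside *Foxp3*, it was negative for *Flicr* (-3.53), *Foxp3* (-3.63), *Ikzf4* (-3.37), *Il2ra* (-2.73), *Itgae* (-3.21), *Lrrc32* (-3.62) and *Swap70* (-3.12). Among receptors and other surface or secreted proteins, it was negative for *Ccr6* (-3.39), *Ccr8* (-2.34), *Cd200r1* (-1.42), *Cd55* (-2.09), *Cnr2* (-1.53), *Ecm1* (-2.20), *Lamc1* (-2.97), *Penk* (-5.19) and *Rln3* (-4.01). It was also negative for *Acsbg1* (-2.34), *Atp6v0d2* (-3.69), *Coro2a* (-1.86), *Gata1* (-2.15), *Gsta4* (-3.69) and *Gucy1a1* (-2.97). Groups of 3 libraries are too small for a test of single outlying libraries. Of the 54, 11 were kept without chimera 10 (*Chn2*, *Foxp3*, *Gucy1a1*, *Ikzf4*, *Il2ra*, *Itgae*, *Lrrc32*, *Penk*, *Sox4*, *Swap70* and *Tdrp*), 15 without chimera 11 (those 11 except *Il2ra*, and *Apoe*, *Edn3*, *Klf2*, *Lamc1* and *Lratd1*) and 54 without chimera 12. *Rgcc* was chosen after its values were seen.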

How the results depend on the processing

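None of the 452 genes called changed direction under any alternative that tested it, but the balance of calls did: lower calls outnumbered higher ones with both limma fits and without chimera 12. Of 138 called genes examined one by one, 67 were called under every alternative, 37 were lost only without a chimera and 34 under another alternative too. The 452 calls between anergic groups became 1619 (951 higher, 668 lower) with only the 6 anergic libraries, 765 (469 and 296) with TMM factors from genes with log2 CPM over 1, 592 (388 and 204) with DESeq2, 673 (441 and 232) with the likelihood ratio test, 679 (473 and 206) with no filter on low counts, 848 (543 and 305) among genes with log2 CPM over 1, 1036 (486 and 550) with limma on log2(TPM + 1), 795 (354 and 441) with limma on log2(TPM + 0.1), and 1597 (1075 and 522) without the WT naive and stimulated libraries of chimera 12. With RLE factors they were 398 (261 and 137). Without a chimera they ranged from 129 to 2685 (78 to 1032 higher, 51 to 1653 lower), being 129 without chimera 10, 148 without chimera 11 and 2685 without chimera 12. The 130 calls of the difference between gates became 260 (158 and 102), 279 (206 and 73), 283 (156 and 127), 488 (382 and 106), 312 (205 and 107), 402 (185 and 217), 260 (125 and 135) and 305 (202 and 103) under the same alternatives in that order, starting with TMM factors from genes with log2 CPM over 1, 124 (86 and 38) with RLE factors, and ranged from 12 to 941 (4 to 325 higher, 8 to 616 lower) without a chimera, with 9.23% of the 130 kept without chimera 10 and 16.2% without chimera 11. The cause of these shifts was not tested. Without the replicate block that pairs the genotypes of a chimera, 459 genes were called (300 and 159), 429 of them among the 452, and 132 (77 and 55) for the difference between gates; *Dgki* was the one of the 138 lost. DKO libraries were deeper than WT libraries, and with the DKO anergic libraries thinned to WT depth 457 genes were called (303 and 154), and 131 (80 and 51) for the difference. With 3 chimeras, a gene not called is not shown to be unchanged.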
